A study of Sus scrofa domesticus with 28 samples.

Results

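Hyperpigmented late scar was compared with hypopigmented late scar of red Duroc pigs, a breed that heals deep skin wounds with thick, raised scars and serves as a model of human hypertrophic scar. The comparison comprised the 8 arrays whose sample titles name late scar, 4 labelled hyper and 4 labelled hypo, of 28 arrays in all. The other 20 arrays held 4 biopsies of control skin, 8 of early scar and 8 of mid scar. All biopsies came from 2 juvenile castrated male animals, numbered 49 and 50. In both animals the late scars of the left side were sham-treated and those of the right side had pressure, so treatment and side cannot be told apart. Each side gave 1 hyper and 1 hypo biopsy, which makes 4 pairs, named here 49L, 49R, 50L and 50R for the animal and the side. The titles give all hyper biopsies the code a1 and all hypo biopsies the code a3, so pigmentation and the unexplained code cannot be told apart. A further number in the titles, with no stated unit, was equal within the 49R and 50L pairs. It was lower for the hyper than for the hypo biopsy in 49L and 50R, so a pair need not come from 1 scar.

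Skin colour comes from melanocytes, which sit among the basal cells of the epidermis and in hair follicles. Tyrosinase (TYR) carries out the rate-limiting step of melanin synthesis, and the related enzymes TYRP1 and DCT act after it. The pigment is made in melanosomes, organelles that are assembled, moved outward and handed to keratinocytes, and the transcription factor MITF and the receptor MC1R regulate the enzymes.

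RNA of each biopsy was labelled with Cy5 and hybridised beside a universal pig reference RNA labelled with Cy3. Levels are log2 ratios of biopsy to reference, and a difference is the level in hyper scar minus that in hypo scar. The share of 43603 probes with a Cy5 signal well above background was 43.3% in hyper and 39.8% in hypo scar of pair 49L. It was 41.9% and 41.2% in 49R, 40.0% and 31.4% in 50L, and 47.1% and 33.9% in 50R. More probes were thus detected in the hyper biopsy of all 4 pairs, by 6.47 percentage points on average (SD 5.52, n = 4), with an exact two-sided sign-flip p of 0.125, the smallest that 4 pairs allow. Across the other 20 arrays the share lay between 40.2% and 55.7%, so the hypo arrays of animal 50 had the fewest detected probes of the series. Whether this difference in detection contributed to the differences below was not tested.

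1 biopsy stood apart in its skeletal muscle genes. In the hyper biopsy of 49R the mean level of 24 measured skeletal muscle genes was 2.55, against -2.81 to -0.85 in the other hyper biopsies, -2.55 to -1.57 in hypo scar and -3.22 to -2.92 in control skin. The mean of 15 adipocyte genes was also higher there, at 1.91, than in the other hyper biopsies (-0.60 to 0.97). A high adipocyte mean was not particular to it. The hypo biopsy of 49L lay at 1.67, against -0.33 to -0.09 in the other hypo biopsies, and control skin lay at 0.69 to 1.62. Calls of named genes between late hyper and hypo scar are given below with and without pair 49R.

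The first question was whether the pigment labels are matched by the genes that make melanin. TYR lay higher in hyper than in hypo scar in every late pair, and the difference passed the test across all features. Its level in hyper scar was -0.02 in 49L, 0.28 in 49R, 0.82 in 50L and 0.98 in 50R. In hypo scar it was -0.91, -0.34, 0.06 and -0.60 in the same order. The hyper values of animal 49 were below those of animal 50, and the hyper biopsy of 49L lay just under the hypo biopsy of 50L, so the groups overlapped across animals but not within pairs. The fitted difference over the 4 late pairs was 0.97 ± 0.18 (SE, limma, Benjamini-Hochberg adjusted p = 0.0208 over 18756 features). This SE, like that of the other hyper minus hypo differences, rests on the spread within the 12 scar pairs of all phases. It is not the spread of the 4 late pairs alone. TYR signal was well above background on 2 of 4 hyper arrays, both of animal 50, and on 0 of 4 hypo arrays. Measured in the Cy5 channel against the detection floor, the mean hyper level was at least 1.60-fold that of hypo scar. That mean takes the hyper arrays of animal 49 at their measured signal although TYR was not well above background there. It therefore gives no bound for animal 49.

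TYRP1, which acts with TYR on later intermediates of melanin, split by animal. Its level in hyper scar was -0.24 in 49L and 0.10 in 49R but 1.57 in 50L and 1.73 in 50R. The hypo values were 0.16, 0.02, 0.44 and -0.10. The pairs of animal 50 therefore differed by 1.13 and 1.83, while those of animal 49 differed by -0.40 and 0.08. The mean difference of the 4 pairs was 0.66, with an SE of 0.31 from the fit of all scar pairs, and did not pass (limma, adjusted p = 0.267). Detection followed the same split, with TYRP1 well above background on the 2 hyper arrays of animal 50 and on 0 of 4 hypo arrays.

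DCT, the dopachrome tautomerase, did not share this pattern. It was detected on all 8 late arrays, at 0.74, 0.88, 1.72 and 0.79 in hyper and 0.70, 1.45, 1.60 and 2.18 in hypo scar for 49L, 49R, 50L and 50R. The hypo biopsy of 50R was the highest of all 8, and 2 of the 4 pairs had the lower value in hyper scar. The difference was -0.45 ± 0.25 (SE; limma, adjusted p = 0.353). DCT is represented by 1 probe.

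**Figure D1:**
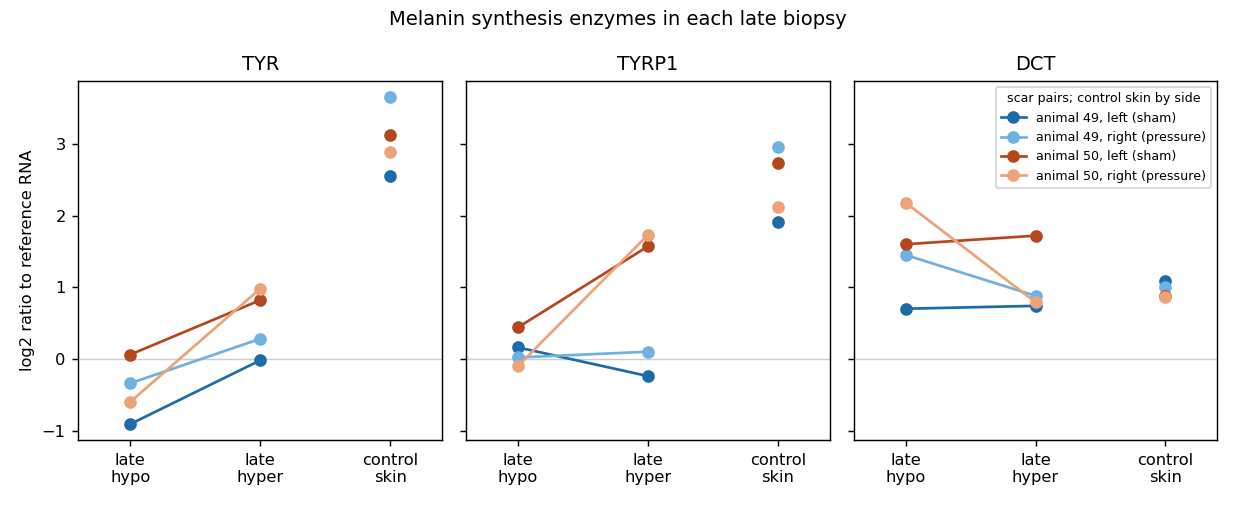
Log2 ratio to reference RNA (vertical axis) of TYR, TYRP1 and DCT in each late hypo and late hyper biopsy, joined by animal and side, and in the 4 control skin biopsies. TYR is higher in hyper scar in all 4 pairs, TYRP1 only in animal 50 by more than 1, and both stay below control skin in every late biopsy.

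In control skin TYR lay between 2.55 and 3.65 and TYRP1 between 1.91 and 2.96, above every late scar value of the same gene. TYR was lower than in control skin by a log2 difference of -2.53 ± 0.24 in late hyper scar and -3.50 ± 0.24 in late hypo scar (limma over 28 arrays, adjusted p = 4.61e-07 and 4.30e-09). For TYRP1 the corresponding values were -1.64 ± 0.32 and -2.30 ± 0.32 (adjusted p = 0.00154 and 1.37e-05). DCT differed by 0.07 ± 0.25 in hyper and 0.52 ± 0.25 in hypo scar, and neither passed. The hyper and hypo values share the same 4 control arrays. In such whole-tissue samples fewer melanocytes and less RNA per melanocyte cannot be told apart.

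The direction of TYR was the same at every phase. TYR was higher in the hyper biopsy in 4 of 4 early, 4 of 4 mid and 4 of 4 late pairs, with fitted differences of 0.91 ± 0.18 (SE) early and 0.63 ± 0.18 mid. The change from early to late was 0.05 ± 0.25, which did not pass (limma, adjusted p = 0.936). Detection was as uneven: 8 of 12 hyper scar arrays of any phase had TYR well above background (4 early, 2 mid and 2 late) and 0 of 12 hypo scar arrays did. For TYRP1 these counts were 9 of 12 and 0 of 12, and 11 of 12 pairs were higher in hyper scar, the late 49L pair being the exception. Over all features, 0 passed in early scar (767 at unadjusted p below 0.05, limma) and 0 in mid scar (1504).

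The call on TYR did not hold under every processing. It passed in 7 of the 16 alternatives in which it was measured, always with the same sign. The filter on 4 of 8 late arrays removed TYR, which was well above background on 2 late hyper and 0 late hypo arrays. Fits that left out pairs or used the late arrays alone could not turn its sign, as 4 of 4 late pairs were positive. Its difference ranged from 0.50 to 1.63. Without pair 49R, whose hyper biopsy stood apart in muscle genes, it was 1.21 with adjusted p = 0.0486. The adjusted p was 0.143 without 49L, 0.0665 without 50L, 0.0591 without 50R and 0.0923 within the 8 late arrays alone. In the authors' deposited value table TYR differed by 0.11 and 0.39 in the pairs of animal 49 and by 3.13 and 2.89 in those of animal 50. TYRP1 differed there by 0.13, 0.69, 5.25 and 4.90 (limma, adjusted p = 0.136 for both). DCT was lower in hyper scar in all 4 pairs of that table, with differences of -0.14, -0.15, -0.70 and -1.58 (limma, adjusted p = 0.297).

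The remaining pigment genes did not separate the groups. Before their counts are given, the background is that 3.21% of all 18756 features were called in this comparison. Of 32 measured genes in 5 pigment lists, TYR alone was called. Many members were not measured: of 13 genes for melanosome structure and ion transport, the list that holds the fibril protein PMEL and the antigen MLANA, 2 had a probe that could be named. These were GPNMB, a melanosomal glycoprotein that macrophages also make, and OCA2, which controls melanosome pH. GPNMB lay at 3.68, 2.42, 0.89 and 1.87 in hyper and 2.83, 0.55, 0.41 and 0.18 in hypo scar, higher in each pair, but the groups overlapped and the difference of 1.23 ± 0.69 (SE) did not pass (limma, adjusted p = 0.359). OCA2 was well above background on 0 of 8 late arrays.

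The machinery that builds and moves melanosomes differed little. All 12 measured members had a fitted difference of 0 or above, with a median of 0.10 against -0.05 over all features, and 0 were called. The highest were HPS4 (0.38 ± 0.29, SE) and HPS6 (0.29 ± 0.23), subunits of complexes that sort cargo to melanosomes. RAB27A, the small GTPase that tethers melanosomes at the cell edge, differed by 0.00 ± 0.18, and MLPH, which links it to the myosin motor, by 0.03 ± 0.17.

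Among 6 receptors and transcription factors of melanocytes 0 were called, with a median difference of 0.03. MC1R, the melanocortin receptor, was level in hyper scar (0.31, 0.33, 0.19 and 0.55) and spread wider in hypo scar (0.42, 0.40, 1.51 and 1.02). It was the lower of the 2 in hyper scar in all 4 pairs, with a difference of -0.50 ± 0.20 (SE) that did not pass (limma, adjusted p = 0.197). MITF differed by 0.43 ± 0.28, KIT, the receptor for stem cell factor, by -0.32 ± 0.17, EDNRB, the endothelin receptor, by -0.04 ± 0.27, and SOX10 by 0.10 ± 0.19. SOX10 was detected on 1 of 8 late arrays.

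None of 9 measured signals that act on melanocytes was called, and their median difference was -0.12. POMC, the precursor of melanocortins, differed by -0.21 ± 0.21 (SE), EDN1, an endothelin that drives melanocyte growth, by 0.21 ± 0.20, and AGRP, a melanocortin antagonist, by -0.22 ± 0.14. IL6 and TNF, cytokines that lower melanin synthesis in culture, differed by -0.31 ± 0.34 and -0.24 ± 0.25.

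Beyond pigment genes, late hyper scar differed from late hypo scar mostly by lower levels. Of 18756 features 602 were called (3.21%), 37 higher (0.197%) and 565 lower (3.01%) in hyper scar. Only 2605 features had a gene symbol, of which 43 were called (1.65%), 13 higher (0.499%) and 30 lower (1.15%). The 8 arrays did not overlap between groups for 1764 features (9.40%), of which 335 were higher (1.79% of all) and 1429 lower (7.62%) in hyper scar. These counts rest on the way the arrays were processed. With the 8 late arrays alone, or with the slide as a further block, 0 features passed (2908 and 1846 at unadjusted p below 0.05, limma), and without pair 49L 2 passed, neither of them among the 602. The count was 127 without 49R, 223 without 50L and 540 without 50R. Of the highest and lowest called symbols with 1 sign in 4 of 4 pairs, 23 are described here. Among these 23, 0 passed without 49L (limma, adjusted p of 0.134 to 0.232), 4 without 49R (TYR, MS4A2, CNPY3 and MBP), 3 without 50L and 9 without 50R. All 23 kept that sign in each of these fits, but the choice of genes with 1 sign in 4 of 4 pairs fixed this in advance. With median centring in place of loess 2019 were called higher and 21 lower. The median over all features was higher by 0.21 on the log2 scale with median centring, and the median difference of the 565 lower features was 0.04 in place of -0.91.

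**Figure D2:**
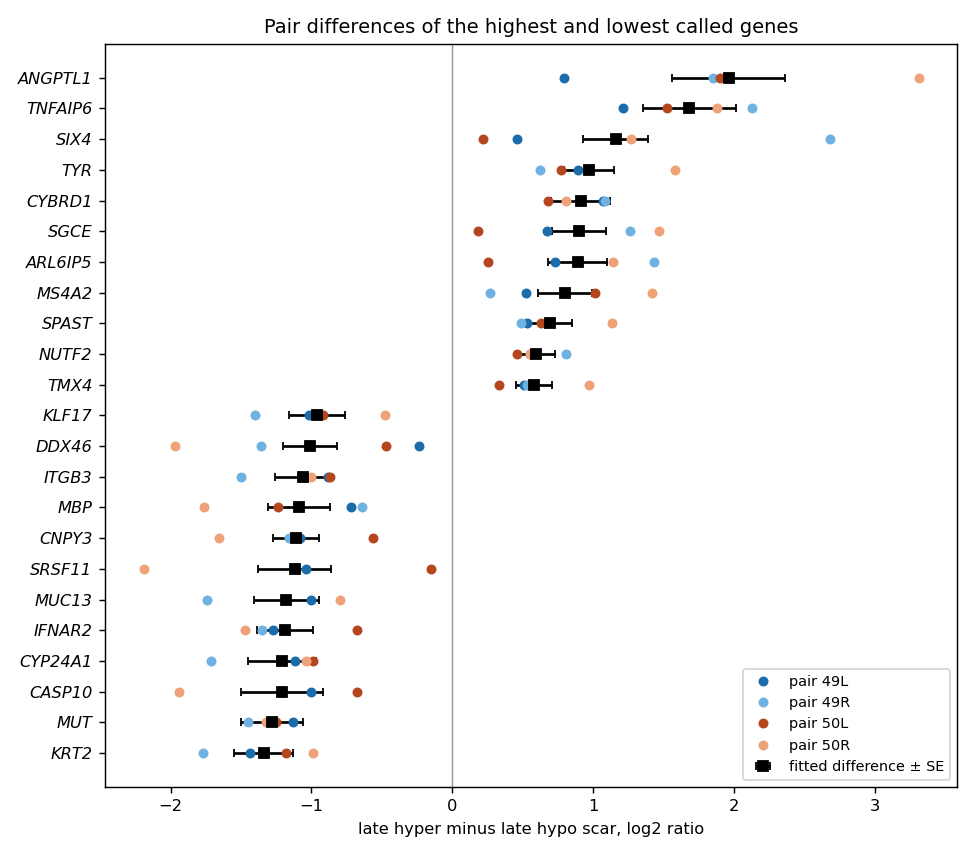
Difference between late hyper and late hypo scar (log2 ratio, horizontal axis) of 11 of the highest and the 12 lowest called genes with a symbol, with 1 dot per pair and a square with bars for the fitted difference ± SE. All dots lie on the side of the fitted value because the genes were chosen for that, and pair 49R stands far out for SIX4 (2.68).

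The genes higher in hyper scar included secreted and matrix-binding proteins. ANGPTL1, a secreted angiopoietin-like protein, lay at 2.46, 2.79, 2.37 and 4.18 in hyper and 1.67, 0.94, 0.47 and 0.86 in hypo scar. The groups did not overlap, and the difference was 1.96 ± 0.40 (SE; limma, adjusted p = 0.0291). TNFAIP6, which binds hyaluronan and is made during inflammation, lay at 3.61, 2.87, 1.56 and 2.13 in hyper and 2.39, 0.74, 0.04 and 0.25 in hypo scar. Its groups overlapped across animals, while each pair was higher in hyper scar, by 1.68 ± 0.33 (adjusted p = 0.0262). Without pair 49R ANGPTL1 differed by 2.33 (adjusted p = 0.0530) and TNFAIP6 by 1.62 (adjusted p = 0.0887), and neither passed.

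Both genes were also compared with control skin. The hyper scar level of TNFAIP6 differed from control by 0.03 ± 0.48 (SE) and the hypo level by -1.66 ± 0.48, of which the latter passed (limma, adjusted p = 0.00986). ANGPTL1 differed from control by 0.74 ± 0.52 in hyper and -1.23 ± 0.52 in hypo scar, and neither passed (adjusted p = 0.320 and 0.0686).

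SIX4, a homeobox transcription factor that acts in muscle and other developing tissues, was also called higher. It lay at 0.54, 1.94, 0.10 and 1.20 in hyper and 0.08, -0.74, -0.12 and -0.07 in hypo scar, a difference of 1.16 ± 0.23 (SE; limma, adjusted p = 0.0262). Its highest value was in the 49R hyper biopsy, the one with high muscle genes. Without that pair it differed by 0.81 and did not pass (adjusted p = 0.100). The muscle list differed by 1.59 in 49L, 5.09 in 49R, -1.05 in 50L and -1.23 in 50R, and SIX4 by 0.46, 2.68, 0.22 and 1.27. The part of muscle content in the SIX4 difference was not tested.

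The other genes called higher with the same sign in 4 of 4 pairs had smaller differences. CYBRD1, an iron-reducing membrane enzyme, differed by 0.91 ± 0.21 (SE), SGCE, a sarcoglycan of the dystrophin complex, by 0.90 ± 0.19, and ARL6IP5, a membrane protein of the endoplasmic reticulum, by 0.89 ± 0.21. SPAST, which severs microtubules, differed by 0.69 ± 0.16 and was well above background on 3 hyper and 0 hypo arrays, which gives at least 1.53-fold in the Cy5 channel. NUTF2, a nuclear import factor, and TMX4, a membrane protein of the thioredoxin family, differed by 0.59 ± 0.14 and 0.58 ± 0.13. Limma's adjusted p of these 6 genes lay between 0.0349 and 0.0486. Without pair 49R none of the 6 passed, with differences of 0.53 (NUTF2) to 0.95 (SGCE) and adjusted p of 0.0558 (SPAST) to 0.157 (NUTF2). CCL24, an eosinophil-attracting chemokine, was called too (1.0 ± 0.23, adjusted p = 0.0413) but was lower in hyper scar in the 50L pair, and without 49R its adjusted p was 0.0605.

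MS4A2, a chain of the IgE receptor of mast cells, was higher in hyper scar, at 1.01, 0.38, 1.23 and 1.13 against 0.49, 0.12, 0.22 and -0.29. Its difference was 0.80 ± 0.19 (SE; limma, adjusted p = 0.0486), and 1.09 without pair 49R (adjusted p = 0.0486). KIT was the only other mast cell marker with a measured probe and, as given above, was not called.

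The called features without a gene symbol included the Ensembl transcript ENSSSCT00000000394. It lay at 1.21, 0.40, 2.21 and 2.37 in hyper and between -0.31 and 0.11 in hypo scar, and was well above background on 3 hyper and 0 hypo arrays. The difference was 1.61 ± 0.39 (SE; limma, adjusted p = 0.0499), with 1.78 ± 0.39 in early and 1.63 ± 0.39 in mid scar. In control skin it lay between 2.29 and 2.95. ENSSSCT00000005134 was higher by 1.46 ± 0.33 in late scar (adjusted p = 0.0407), against -0.76 ± 0.33 early and -0.65 ± 0.33 mid. Without pair 49R the adjusted p was 0.0503 for ENSSSCT00000000394 and 0.0748 for ENSSSCT00000005134.

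Of the genes with a symbol that were lower in hyper scar in 4 of 4 pairs, KRT2 had the largest difference. KRT2 encodes a keratin of the upper epidermis. It lay at 3.27, 3.74, 5.04 and 4.64 in hyper and 4.72, 5.50, 6.22 and 5.63 in hypo scar. Animal 50 was higher than animal 49 in both kinds of scar, so the groups overlapped although each pair fell by between 0.99 and 1.77. The difference was -1.34 ± 0.21 (SE; limma, adjusted p = 0.0160), and -1.15 without pair 49R, which did not pass (adjusted p = 0.0605).

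The other 4 measured markers of differentiated keratinocytes also had negative differences, with a median over the 5 of -1.16, and 1 of 5 was called. DSG1, a desmosomal cadherin, lay at 2.57, 2.53, 3.79 and 3.49 in hyper and 3.70, 4.53, 4.53 and 4.26 in hypo scar (-1.16 ± 0.33, SE; limma, adjusted p = 0.0907). The desmosomal plaque protein DSP and the envelope precursor IVL split by animal and were not called. DSP differed by -2.38 and -3.90 in 49L and 49R but 0.35 and 0.11 in 50L and 50R, and IVL by -1.62 and -1.95 but 0.28 and 0.51. The mean level of the list in hyper scar was 1.63 in 49L and 1.80 in 49R, below 2.89 to 3.85 in the other 6 late biopsies. Those are the biopsies in which TYR and TYRP1 were low for hyper scar, and the part of epidermal content in the TYR and TYRP1 values was not tested. No marker of basal keratinocytes was measured.

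Of the 12 lowest genes 4 kept their sign under every normalisation, namely KRT2, MBP, SRSF11 and DDX46. MBP, a protein of myelin, lay at -1.20, -1.18, -0.53 and -0.90 in hyper and -0.47, -0.53, 0.71 and 0.87 in hypo scar, with a difference of -1.09 ± 0.22 (SE; limma, adjusted p = 0.0266). All 8 of its probes had the same direction. MBP was the only 1 called of 5 measured Schwann cell and nerve genes, of which 2 had a positive difference (median -0.23). The mean of that list differed by 0.30 in 49L, 0.20 in 49R, -0.49 in 50L and -0.67 in 50R. The splicing factors SRSF11 and DDX46 differed by -1.12 ± 0.26 and -1.01 ± 0.19 (adjusted p = 0.0420 and 0.0235), most in the 50R pair, at -2.19 and -1.97. Without pair 49R MBP differed by -1.37 and passed (adjusted p = 0.0486), while SRSF11 and DDX46 did not (adjusted p = 0.0574 and 0.0503).

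The remaining 8 were called lower with loess but lay slightly above 0 with median centring. They were MUT, a mitochondrial mutase (-1.28 ± 0.22, SE), CYP24A1, which breaks down vitamin D (-1.21 ± 0.24), CASP10, an initiator caspase (-1.21 ± 0.29), IFNAR2, a chain of the interferon receptor (-1.19 ± 0.20), MUC13, a mucin (-1.18 ± 0.23), CNPY3, a chaperone of Toll-like receptors (-1.11 ± 0.16), ITGB3, an integrin chain (-1.06 ± 0.20), and KLF17, a zinc finger transcription factor (-0.96 ± 0.20). Their groups did not overlap, and all 8 lay in one narrow band, between -2.40 and -0.84 in hyper and between -1.33 and 0.38 in hypo scar. Without pair 49R CNPY3 passed (-1.24, adjusted p = 0.0486), and the other 7 had adjusted p of 0.0530 (IFNAR2) to 0.129 (KLF17). The second probe of MUT and of ITGB3 and 1 of 6 probes of CASP10 had the opposite direction. Of all 30 symbols called lower, 8 stayed below 0 with median centring, whereas all 13 called higher stayed above 0.

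The 565 lower features shared further properties. The filter, the background correction and loess all act on signal, so brightness is not independent of the processing. These features were bright, with a median log2 Cy5 signal in late scar of 9.73 against 7.06 over all features. Of them 94.3% were well above background on all 8 late arrays, against 46.2% of all features. When all features were split into 4 equal groups by brightness, the brightest group held 422 of the 565 and the dimmest 3. Only 5.31% had a gene symbol, against 13.9% of all, and 278 were sequence clusters known by a TC number. The 37 higher features were dimmer (median 7.27), and 29.7% were well above background on all 8 arrays.

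As a group these 565 features also moved in control skin and in other scars. Their mean level was -1.44, -1.45, -0.89 and -1.12 in late hyper scar and -0.58, -0.28, -0.26 and -0.13 in late hypo scar, for 49L, 49R, 50L and 50R, and between -2.14 and -1.49 in control skin. 2 arrays of mid sham hyper scar, 49L and 50L, lay at -0.47 and -0.36, as high as late hypo scar, while the mid sham hypo arrays lay at -1.53 and -1.51. The mid pressure pairs did not share this reversal. Pair 49R lay at -1.19 in hyper and -1.22 in hypo scar, and 50R at -1.65 and -0.92, lower in hyper as in late scar. The median fitted difference of the 565 was 0.34 in early and 0.39 in mid scar, opposite in sign to late scar. Since the features were chosen for their late difference, the late values are a description only.

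**Figure D3:**
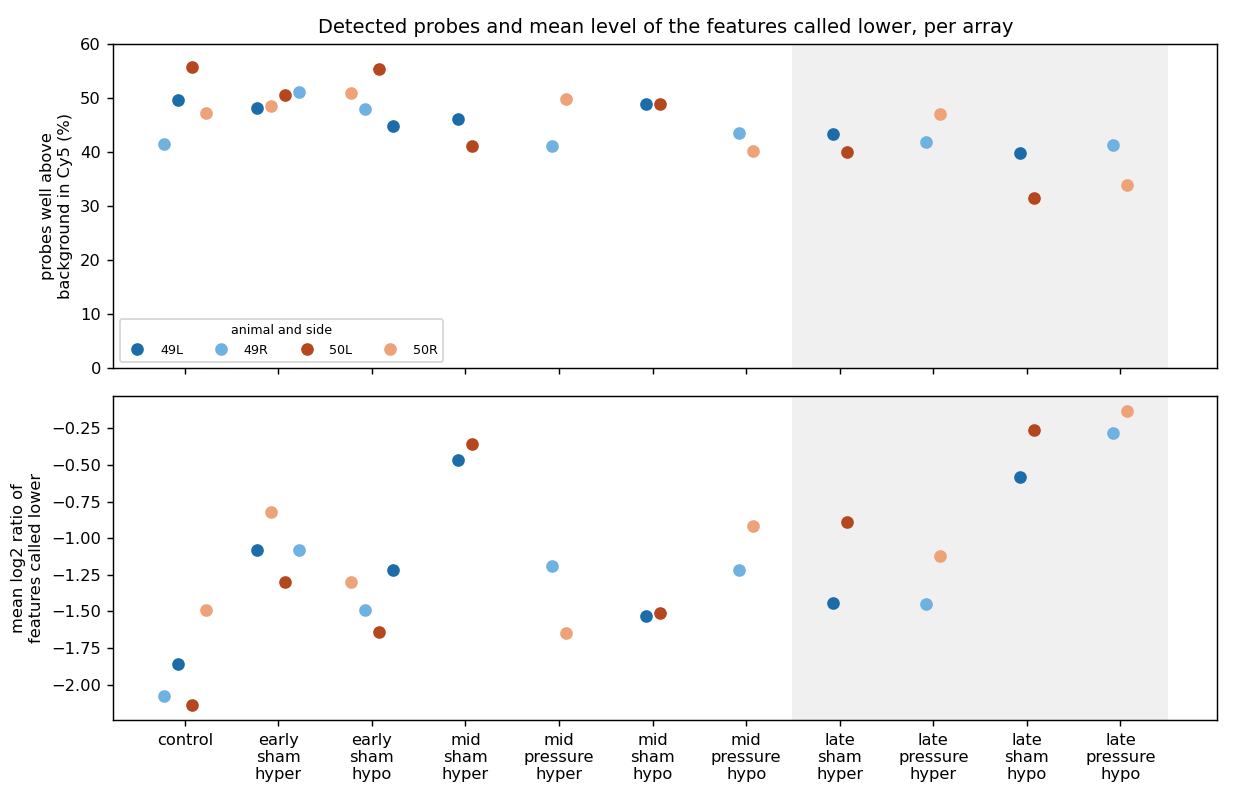
Top, percent of probes well above background in Cy5 on each of the 28 arrays by group; bottom, mean log2 ratio of the 565 features called lower, with late scar shaded and colours for animal and side. Late hypo arrays have means of -0.58 to -0.13 and include the array with the fewest detected probes (31.4%), and 2 mid sham hyper arrays lie at -0.47 and -0.36.

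Slides bear on these values. The 8 late arrays were spread over 6 of the 7 slides, and 1 slide alone held both kinds, with the hyper biopsies of 49L and 50R and the hypo biopsy of 50L. Within that slide KRT2 differed by -2.26, MBP by -1.75, ANGPTL1 by 2.85, TNFAIP6 by 2.83, TYR by 0.42 and TYRP1 by 0.31. These values have the sign of the fitted differences, but mix animals and have no replicate.

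Pigmentation differences were then compared between phases. From early to late scar the difference changed for 500 features (2.67%), 20 upward and 480 downward, and from mid to late for 806 (4.30%), 102 upward and 704 downward. Among named genes the change from early was -2.07 ± 0.30 (SE) for KRT2, whose difference was 0.73 ± 0.21 in early scar (limma, adjusted p = 0.0132 for the change). It was 2.71 ± 0.57 for ANGPTL1, which differed by -0.74 ± 0.40 in early scar (adjusted p = 0.0336). CNPY3, IFNAR2 and ITGB3 changed by -1.58, -1.83 and -1.70, in the direction that loess gives. Without pair 49L both counts fell to 0.

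The pigmentation difference was not shown to depend on treatment. Between pressure and sham scars 0 features passed (limma, smallest adjusted p 0.997; 724 at unadjusted p below 0.05). For TYR the difference was 0.89 and 0.77 in the sham pairs 49L and 50L and 0.62 and 1.58 in the pressure pairs 49R and 50R, a change of 0.27 ± 0.35 (SE). Each treatment has 2 pairs.

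Against control skin, 4522 features (24.1%) were called in late hyper scar and 7483 (39.9%) in late hypo scar, of which 2725 and 5067 were higher than in control skin. Median centring left 685 and 1325 higher calls of 3250 and 7861. Without the control biopsy of 50L the count in hyper scar was 2385. Both comparisons used the same 4 control arrays.

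Connective tissue genes leaned upward in hyper scar without a call. Over all features with a symbol 1.65% were called, so a list of this size need not hold a call. Of 13 measured collagens and other matrix genes 11 had a positive difference, with a median of 0.65 against -0.05 over all features, and 0 were called. The mean of this list differed most in 50R (1.57), against 0.24 in 49L, 0.13 in 49R and 0.58 in 50L. VCAN, a large proteoglycan, lay at 1.46, 1.32, 3.52 and 3.59 in hyper and 0.98, 0.49, 1.39 and 1.66 in hypo scar, a difference of 1.35 ± 0.33 (SE; limma, adjusted p = 0.0559). FBN1, the main protein of microfibrils, differed by 1.09 ± 0.32 (adjusted p = 0.0964) and its groups did not overlap, while COL8A1 differed by 1.49 ± 0.57. Of 13 proteases and inhibitors 11 were positive (median 0.37), among them the collagen-degrading CTSK at 1.58 ± 0.51, with 0 called.

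Apart from MS4A2 of the mast cell list, immune lists had no call. With 1.65% of all features with a symbol called, 0 calls do not set lists of these sizes apart. The chemokine CCL24, called above, was not a member of the lists given here. Of 21 macrophage and dendritic cell genes 18 were positive (median 0.33), with CD163, a scavenger receptor, at 1.15 ± 0.52 (SE) and lysozyme (LYZ) at 1.54 ± 0.89. Of 25 cytokines and chemokines 0 were called (median 0.12), of 23 interferon response genes 0 (median 0.10) and of 12 T and NK cell genes 0 (median 0.02). The T and NK gene with the lowest p was GZMB, a cytotoxic granule protease, at -0.85 ± 0.25 (limma, adjusted p = 0.0950).

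Of 2 further calls, RGS5 came from the list of vessel wall cells and DEFB1 from that of activated keratinocytes. RGS5, a marker of pericytes, lay at 2.29, 1.94, 3.60 and 3.91 in hyper and 2.89, 3.03, 4.06 and 4.88 in hypo scar and was lower in hyper scar by -0.78 ± 0.19 (SE; limma, adjusted p = 0.0476). Without pair 49R its adjusted p was 0.137. It was the only 1 called of 9 myofibroblast, pericyte and smooth muscle genes, of which 5 had a positive difference (median 0.15). DEFB1, an antimicrobial peptide of epithelia, lay at -2.88, -2.58, -2.27 and -2.77 against -2.02, -1.80, -1.71 and -1.66, with no overlap and a difference of -0.83 ± 0.16 (adjusted p = 0.0239), and an adjusted p of 0.0594 without 49R. Of the 5 measured genes of activated keratinocytes 2 were positive, with a median of 0.00, and DEFB1 alone was called; S100A8, a neutrophil and keratinocyte protein, differed by 1.0 ± 0.61. Of 14 endothelial genes 0 were called (median -0.17), against 1.65% of all features with a symbol. KRT31, the only measured hair follicle marker, was well above background on 1 of 8 late arrays, at 0.07 to 0.85, against 3.88 to 4.46 in control skin.

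**Figure D4:**
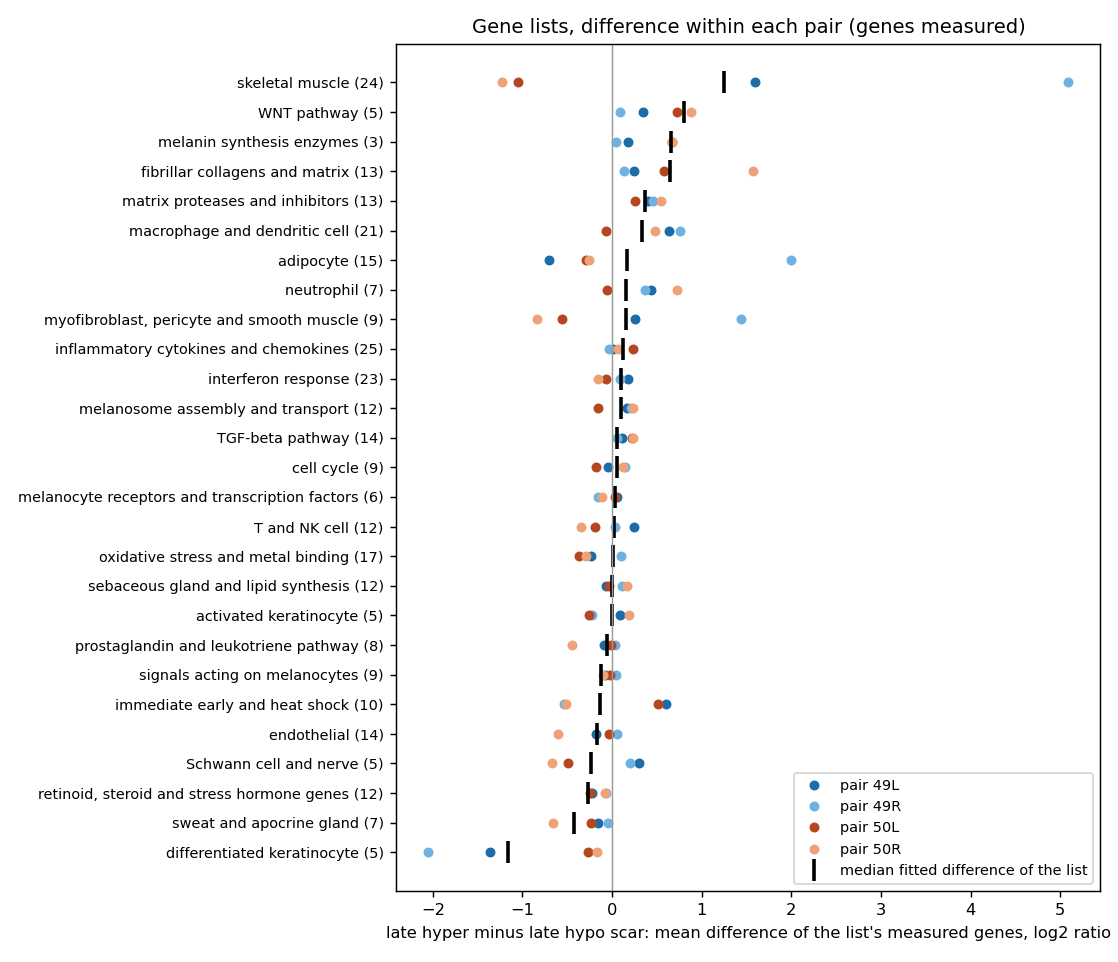
Mean difference between late hyper and late hypo scar (log2 ratio, horizontal axis) over the measured genes of each list, with 1 dot per pair, and the median fitted difference of the list as a bar; the number of measured genes is in brackets. The 49R pair stands at 5.09 for skeletal muscle and 2.0 for adipocyte genes, and differentiated keratinocyte genes are lower in both pairs of animal 49 (-1.36 and -2.05) and near 0 in animal 50 (-0.27 and -0.17).

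Lists tied to inflammation mediators and stress had no call, which the share of 1.65% over all features with a symbol does not make unusual. Of 8 prostaglandin and leukotriene genes the lowest was PTGS2, the inducible cyclooxygenase, at -1.07 ± 0.52 (SE), which was lower in hyper scar in 3 of 4 pairs. Of 17 genes of oxidative stress and metal binding 10 were positive (median 0.01), with the metallothioneins MT3 at -1.13 ± 0.30 (limma, adjusted p = 0.0735) and MT1A at -1.40 ± 0.53. Of 12 retinoid and steroid genes 0 were called (median -0.27), of 14 TGF-beta pathway genes 0 (median 0.06) and of 9 cell cycle genes 0 (median 0.05).

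**Figure D5:**
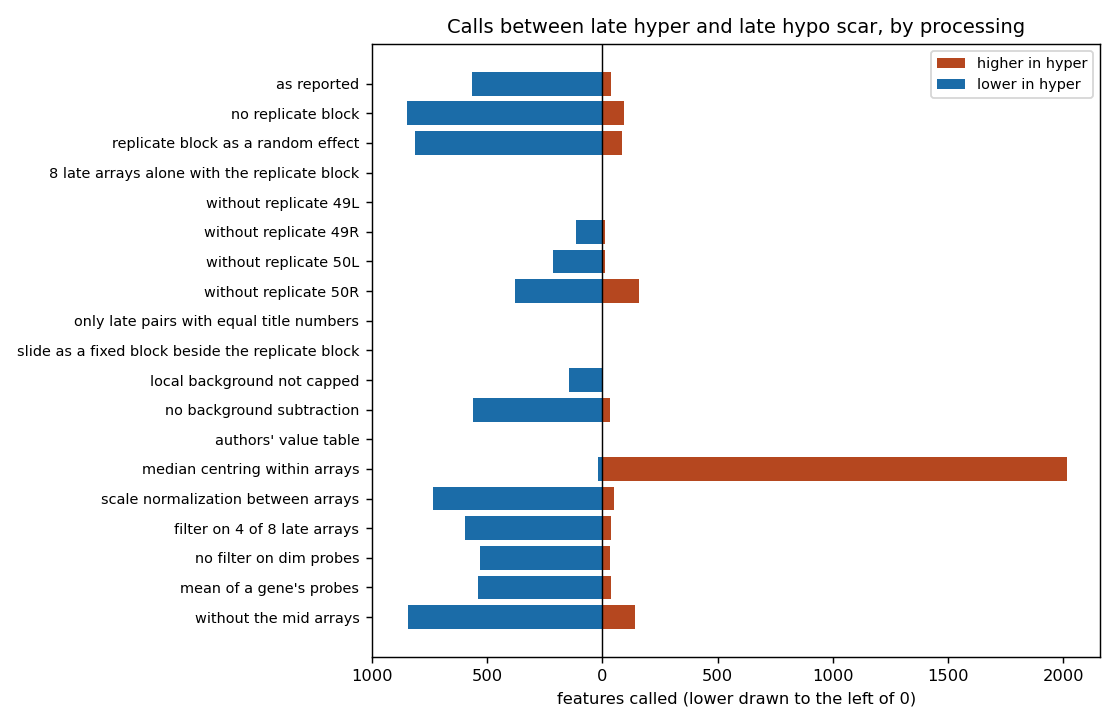
Number of features called between late hyper and late hypo scar (horizontal axis; lower in hyper drawn to the left of 0, higher to the right) under the reported processing and each alternative. The reported 565 lower and 37 higher turn to 21 lower and 2019 higher with median centring, and to 0 with the late arrays alone or the slide as a block.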

How the data were processed

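Each scan of 2 colours was quantified with Agilent Feature Extraction 10.7.1.1, per the file headers. The deposited scanner files give median spot and local background brightness as intensity on a linear scale, flags for signal above background and for outliers, processed signals, also as intensity, and a log10 ratio of Cy5 to Cy3. The authors also deposited a value table of log2 ratios, which equalled the scanner's processed ratios within 0.001. Other steps and a genome build are not given in the sources used here. Per the labels, every array held the biopsy in Cy5 and the reference in Cy3, without dye swap.

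Background was corrected on the median intensities with normexp (offset 50; local backgrounds capped at the 99th percentile of their array and channel), ratios were normalised by loess within arrays (limma 3.58.1, R 4.3.3), and flagged spots were treated as missing. Probes well above background in Cy5 on at least 4 arrays were kept, 24513 of 43603. Symbols came from matching accessions to RefSeq and reached 6924 probes of 3216 genes. The brightest probe stood for a gene or accession, and 17 of 18773 features lacked values in a group.

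The fit used 24 scar arrays with the 12 pairs of the same animal, side and phase as a fixed block and a separate pigmentation effect for each phase and treatment. Late values are the mean of sham and pressure pairs. P values were adjusted by Benjamini-Hochberg with a threshold of 0.05. Control skin was compared in a fit of 28 arrays with 11 group means and the animal. The pairing comes from the animal and side in the titles; deviations from the group means correlated within late pairs at 0.46, -0.06, -0.01 and 0.07. Since all biopsies are of 2 animals, p values speak of variation among their biopsies, not among pigs. The number of arrays limits the precision. An "at least" fold sets the mean Cy5 signal of one group against the lowest signal well above background. That mean includes arrays of the group without detection, at their measured signal. Such folds are not ratios to the reference RNA.

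Genes were named by rule: the measured pigment genes, up to 12 highest and 12 lowest called symbols with the same sign in 4 of 4 pairs, up to 3 genes of lowest p in each other list, up to 2 called features without a symbol in each direction, and up to 4 symbols called between phases. A gene that the rule selects is not reported here, not every other one is described, and genes beyond it were chosen after their values were seen. The comparison, its members and the lists were chosen with earlier results of these data known. The fits were tested on simulated data. Alternatives covered the block, the arrays used, background, normalisation, filter, probe choice and the authors' table.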

Additional observations from a re-analysis of the deposited data

Results flagged for a closer look

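Several values stood far from the others of their group of 4. Of 162 groups of 4 values compared, 9 were marked, and chance marks about 1 in 20. In hyper scar these were CYBRD1 in 49L (2.03, others 0.89 to 1.07), DCT in 50L (1.72, others 0.74 to 0.88), TGFB1 in 49L (0.39, others -0.73 to -0.60) and TNF in 50R (0.59, others 0.26 to 0.31). In hypo scar they were SGCE in 49R (-0.20, others 0.40 to 0.51), GPNMB in 49L (2.83, others 0.18 to 0.55), HPS5 in 49L (1.40, others -0.23 to -0.15), CRHR1 in 49R (0.73, others 0.05 to 0.15) and the mean of the adipocyte list in 49L (1.67, others -0.33 to -0.09).

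The pigmentation difference of 19 named genes differed between late scar and an earlier phase by a test of the change itself (limma, adjusted p below 0.05). From early to late the change was 2.71 for ANGPTL1, 1.47 for SIX4, 1.32 for CYBRD1 and 1.25 for SGCE. From mid to late it was 2.59 for ANGPTL1, 2.46 for TNFAIP6, 1.44 for CYBRD1, 1.35 for SGCE, 1.38 for ARL6IP5, 0.93 for SPAST, 0.88 for NUTF2 and 1.11 for TMX4. Downward changes from early were -2.07 for KRT2, -1.86 for MUT, -1.96 for CYP24A1, -1.79 for CASP10, -1.83 for IFNAR2, -1.76 for MUC13, -1.58 for CNPY3, -1.70 for ITGB3, -1.26 for DDX46 and -1.33 for KLF17. From mid they were -1.69 for KRT2, -1.82 for MUT, -1.82 for CYP24A1, -1.77 for CASP10, -1.65 for IFNAR2, -1.78 for MUC13, -1.59 for CNPY3, -1.51 for ITGB3, -1.29 for DDX46 and -1.35 for KLF17. These genes were chosen for their late difference, and without pair 49L no feature passed either test. TYR, TYRP1 and DCT did not pass.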

How the results depend on the processing

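Calls between late hyper and late hypo scar depended on the processing and on the arrays used, and the cause was not tested. Leaving out 1 late pair gave 2 to 540 calls (2 to 160 higher, 0 to 380 lower), 0 to 529 for the change from early, 0 to 769 for the change from mid and 0 to 3 between pressure and sham. In late scar the lowest count came without 49L, where AY609397 and TC547035 were called, and both changes between phases had 0 calls without it. Between pressure and sham these 2 features were called without 49L, and DB812780, OSBPL6 and TC625198 without 49R. Leaving out 1 control or hyper array gave 2385 to 4691 calls of hyper scar against control. Without the replicate block there were 942 calls (95 higher, 540 shared with the 602), 915 for the change from early and 1425 from mid. With the pairs as a random block there were 86 higher calls, 877 from early and 1384 from mid. With the 8 late arrays alone 0 features were called, 0 higher and 0 lower. With the pairs of equal title number alone, and with the slide as a fixed block beside the replicate block, 0 were called in late scar (0 higher, 0 lower), 0 from early and 0 from mid. Without the cap on local background there were 147 calls (1 higher, 146 lower), 115 from early, 165 from mid and 2935 against control for hyper scar; the higher feature was ENSSSCT00000006757. The authors' value table gave 2 calls, both higher (ENSSSCT00000017508 and TC595058) and 0 lower, with 3978 features at unadjusted p below 0.05, 0 from early and 497 from mid. In that table all 565 lower and all 37 higher features had the reported sign. Without the mid arrays, an alternative chosen after seeing the data, there were 983 calls (141 higher) and 1021 from early.

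Median centring gave 2040 calls (2019 higher, 21 lower; 40 shared with the 602) and 926 for the change from early, and turned the sign of MUT (0.09), CYP24A1 (0.23), CASP10 (0.13), IFNAR2 (0.14), MUC13 (0.24), CNPY3 (0.13), ITGB3 (0.36) and KLF17 (0.17). Of the 565 lower features 233 kept their sign. With no background subtraction, scale normalisation, either other filter or the mean over probes, calls in late scar numbered 566 to 788. Signal over background limits the pigment genes: TYR and TYRP1 were well above background on 0 of 4 late hypo arrays. Early and mid scar had 0 calls under every alternative run.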
